A study of Mus musculus with 4 samples.

Results

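Genes of death receptor signalling, caspases and necroptosis were followed in mouse primary myotubes treated with ectodysplasin A2 (EDA-A2). The members were the 9 genes Fadd, Tradd, Ripk1, Ripk3, Mlkl, Casp8, Casp4, Cflar and Gsdmd, taken by symbol from the 53647 genes in the count tables. All 9 passed the filter on low counts, as did 15173 genes in all. Wild-type (WT) myoblasts from limb muscles of pups aged 2 to 3 days were differentiated into myotubes, and RNA was collected at 72 h. EDA-A2 libraries (n = 2) came from myotubes given 250 ng/mL EDA-A2 for 24 h, and Control libraries (n = 2) from myotubes labelled as control. The labels name neither the strain nor what the control wells received, and they do not say whether libraries of a condition came from separate cultures, so p-values measure the spread between these libraries, which may be technical.

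EDA-A2 binds EDA2R, a relative of the receptors for tumour necrosis factor (TNF). Death receptors such as the main TNF receptor and Fas recruit the adaptors TRADD and FADD, and with them the kinase RIPK1 and caspase-8. Whether EDA2R takes this route was not tested. Active caspase-8 starts apoptosis and cleaves RIPK1 and RIPK3, while its catalytically dead relative cFLIP, encoded by Cflar, holds it in check. Where caspase-8 is blocked, RIPK1 and RIPK3 assemble through their RIP homotypic interaction motifs (RHIM), and RIPK3 phosphorylates the pseudokinase MLKL, which ruptures the plasma membrane. Caspase-11, which mouse Casp4 encodes, senses intracellular lipopolysaccharide and cleaves gasdermin D (Gsdmd) into a pore-forming fragment in pyroptosis.

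The coding stretches that set these proteins apart are shown first, read from GRCm39 along the GENCODE canonical transcripts, because they separate the active caspases from the inactive one and the kinases that can join through the RHIM. Capitals mark the codons of the caspase active-site pentapeptide, whose middle codon encodes the catalytic cysteine, in Casp8 (chr1:58883742-58883816, plus strand, within 1 coding exon) and in Casp4 (chr9:5324913-5327204, plus strand, joined across an intron). The coding sequence of Cflar held no such pentapeptide.
Casp8: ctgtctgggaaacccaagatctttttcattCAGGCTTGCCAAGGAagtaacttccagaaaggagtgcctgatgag
Casp4: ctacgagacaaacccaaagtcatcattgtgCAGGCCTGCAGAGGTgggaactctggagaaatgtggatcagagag
In the next pair the capitals mark the codons of the RHIM core tetrapeptide, in Ripk1 (chr13:34214031-34214102, plus strand) and in Ripk3 (chr14:56022732-56022803, minus strand). Each of these genes held 1 match.
Ripk1: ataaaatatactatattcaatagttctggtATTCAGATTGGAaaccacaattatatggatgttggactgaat
Ripk3: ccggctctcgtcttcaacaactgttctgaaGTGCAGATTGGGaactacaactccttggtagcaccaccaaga

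Sequencing depth was nearly equal, with 29444155 to 29746863 read pairs counted on genes per library. Myotube markers were abundant in every library (Myh3, embryonic myosin heavy chain, had 158931 to 231656 counts). Of the 8 markers of that list, Myh3, Myh8 and Acta1 fell after EDA-A2, beside 2.13% of all genes tested. The summed level of the list was 22310 to 23390 CPM (counts scaled to library size) in Control and 16970 CPM in EDA-A2 libraries. The part of this difference in the results below was not tested. Markers of dividing cells were also present, at a summed 743 and 870.0 CPM in Control and 822 and 809 CPM in EDA-A2 libraries. The 5 markers of myoblasts and satellite cells summed to 1350 and 1270 CPM in Control and 1258 and 1243 CPM in EDA-A2 libraries. None of them had a fitted change above 0, beside 49.5% of all genes tested. Of these markers 1, Cdh15, was called lower (log2 fold change -0.47, adjusted p = 0.00318 in edgeR), beside 2.13% of all genes tested. The part of these cells in the results below was not tested either. The receptor gene Eda2r rose from 7354 ± 468 to 9342 ± 861 normalized counts (SD, n = 2), a log2 fold change of 0.35 (adjusted p = 0.0178; all fold changes and adjusted p-values here come from the quasi-likelihood test of edgeR, adjusted by Benjamini-Hochberg over all genes tested). In bulk RNA, more transcript per cell and more cells of a type cannot be told apart, for Eda2r or for the genes that follow.

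Of the 9 genes, Casp8 rose and no gene fell after EDA-A2. Casp8, Gsdmd, Casp4 and Cflar had the 4 smallest p-values, whereas the adaptors Fadd and Tradd and the kinase Ripk1 had fitted changes of at most 0.13 on the log2 scale. Over all genes tested, 371 (2.45%) were called higher and 323 (2.13%) lower at an adjusted p under 0.05. Under scaling to total counts these became 485 (3.2%) and 194 (1.28%), with Casp8 still the only one of the 9. DESeq2 called 2.03% of its tested genes higher and 1.97% lower, and Casp8 alone of the 9, of which Ripk3 got no adjusted p. With no filter on low counts 0.251% of 25545 genes were higher and 0.0861% lower, and none of the 9 was called in edgeR. In that fit 3 of the 9 were higher at an unadjusted p under 0.05, beside 1119 of the 25545 genes higher and 1145 lower. At an unadjusted p under 0.05 in the fit with the filter, 4 of the 9 genes were higher and none lower, against 7.61% and 8.03% of all genes tested. The fitted log2 fold change was above 0 for all 9 genes, against 49.5% of all genes, with a median of 0.23 beside -0.00 for all genes tested, and it was above 0 for 8 without Control replicate 2 or without EDA-A2 replicate 2. In 8 of the 9, both EDA-A2 libraries lay above both Control libraries, as they did in 22.8% of all genes (both lay below in 22.2%), and Ripk3 was the exception.

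**Figure D1:**
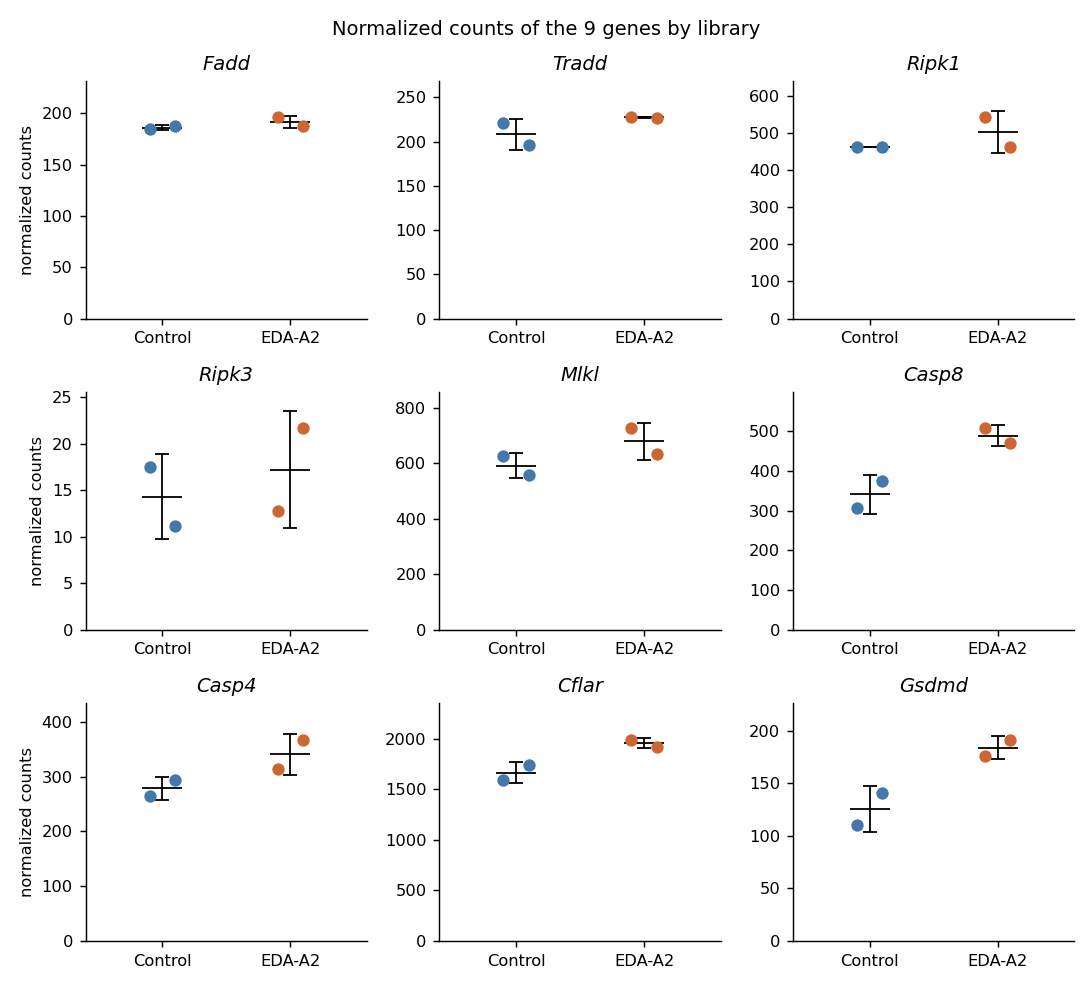
Normalized counts (counts divided by the TMM-adjusted size of their library, at a common scale; vertical axis from 0, a separate scale per gene) of the 9 genes in the 2 Control and 2 EDA-A2 libraries. Points are libraries, and the black bar and whiskers are the mean and SD of each condition; Casp8 lay at 306 and 375 in Control and at 507 and 469.8 after EDA-A2, and Ripk3 is the only gene whose conditions overlap.

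The adaptors were examined first. Fadd (ENSMUSG00000031077, chromosome 7 from 144131055 to 144136211 of GRCm39), the adaptor that brings caspase-8 to the receptor, had 184.4 and 187.6 normalized counts in Control and 196 and 187.7 in EDA-A2 libraries. The lower EDA-A2 library thus exceeded the higher Control library by less than 1 normalized count. Its log2 fold change was 0.04 (SE 0.14, 95% interval -0.26 to 0.35, adjusted p = 0.933 in edgeR). Tradd (ENSMUSG00000031887, chromosome 8 from 105984883 to 105996354) encodes the adaptor of the main TNF receptor. It had 220.5 and 196 normalized counts in Control and 227 in each EDA-A2 library. The conditions did not overlap, but the log2 fold change of 0.13 had an interval from -0.17 to 0.42 (adjusted p = 0.754 in edgeR). Annotated genes on the opposite strand share 239 and 339 bases with exons of Fadd, 61 and 6 with Tradd, 241 with Ripk1, 672 with Mlkl and 283 with Gsdmd, and a pseudogene on the same strand shares 511 with Ripk1. The strand setting of the counting is not given in the sources used here, so the counts of these genes are less certain than those of Casp8, Casp4, Cflar and Ripk3, whose exons overlap no other annotated exon.

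Of the kinases, Ripk1 (ENSMUSG00000021408, chromosome 13 from 34186141 to 34221130), which also scaffolds survival signalling, had 462 normalized counts in each Control library. In EDA-A2 libraries it had 542 and 463, so 1 of the 2 treated libraries matched the controls almost exactly. The log2 fold change was 0.12 (SE 0.11, interval -0.11 to 0.35, adjusted p = 0.684 in edgeR), and it was 0.00 without EDA-A2 replicate 1. Ripk3 (ENSMUSG00000022221, chromosome 14 from 56022452 to 56026324), the kinase of necroptosis, was close to the detection limit, with 17 and 11 counts in Control and 13 and 22 in EDA-A2 libraries. Its 4 libraries overlapped. The exact 95% Poisson interval of the lowest, 5.49 to 19.7 counts, includes 17 but not 22, whose own interval is 13.8 to 33.3. The interval of its log2 fold change, -0.68 to 1.21, is wide enough to hold a rise or a fall of the size seen in any other of the 9 genes. The fitted change turned to -0.03 when Control replicate 2 was left out, and to -0.16 when EDA-A2 replicate 2 was, so no direction can be given.

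Mlkl (ENSMUSG00000012519, chromosome 8 from 112036296 to 112065168), the executioner of necroptosis, had 624 and 559 normalized counts in Control and 725 and 632 in EDA-A2 libraries. The highest control and the lowest treated library differed little, beside SDs of 46.5 and 66.1. The log2 fold change was 0.20 (SE 0.10, interval -0.02 to 0.42, adjusted p = 0.393 in edgeR).

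Casp8 (ENSMUSG00000026029, chromosome 1 from 58834375 to 58886665), the initiator caspase of death receptors, was the only one of the 9 called. It had 306 and 375 normalized counts in Control libraries and 507 and 469.8 in EDA-A2 libraries, without overlap. The mean went from 341 ± 48.9 to 488 ± 26.2 (SD, n = 2), a 1.43-fold rise. The log2 fold change was 0.52 (SE 0.12, interval 0.26 to 0.77, adjusted p = 0.0208 in edgeR), and DESeq2 also called it (adjusted p = 0.0483). The call lies near the threshold. With no filter on low counts the adjusted p was 0.238 in edgeR, and without any 1 library the call was lost. Without either Control library this was not particular to Casp8, since every call in the series was lost there. The log2 fold changes of Casp8 were 0.38 and 0.67 without Control replicates 1 and 2, and 0.46 and 0.57 without EDA-A2 replicates 1 and 2. Of the 57 other tested genes of the 9 and of the pathway list below, those with the pattern most like Casp8 over the 4 libraries were Gsdmd and Casp12, at a root mean square distance of 0.0855 and 0.0956 between mean-centred log2 CPM values.

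Cflar (ENSMUSG00000026031, chromosome 1 from 58750321 to 58798047) lies 36327 bases before Casp8 on the same strand. It had 1595 and 1740.5 normalized counts in Control libraries and 1995 and 1923 in EDA-A2 libraries, again without overlap. The log2 fold change was 0.23 (SE 0.08, interval 0.07 to 0.39), and its adjusted p of 0.108 in edgeR missed the threshold. The balance of cFLIP and caspase-8 is known to set whether a death receptor kills, so their transcripts were set against each other per length within each library. With levels as TPM, a depth-scaled count per base of transcript, taking all annotated exons of a gene as its length, the ratio of Cflar to Casp8 was 1.11 and 0.989 in Control and 0.839 and 0.873 in EDA-A2 libraries. The ratio was lower in both treated libraries, with p = 0.333 in an exact two-sided permutation test, the smallest p that 2 libraries per condition allow (adjusted over the 5 ratios compared, 0.555). With canonical transcript lengths it was 2.04 and 1.81 in Control and 1.54 and 1.599 after EDA-A2, so whether it lies above or below 1 rests on the length used. The ratio of Casp8 to Fadd, at 2.11 and 2.54 in Control and 3.28 and 3.18 after EDA-A2, had the same exact p of 0.333.

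The pair of inflammatory pyroptosis genes was examined next. Gsdmd (ENSMUSG00000022575, chromosome 15 from 75733974 to 75739257) had 110.2 and 141 normalized counts in Control and 176 and 192 in EDA-A2 libraries. The conditions did not overlap, and the mean was 126 ± 21.9 in Control and 184 ± 10.8 after EDA-A2 (SD, n = 2). Its log2 fold change of 0.55 was close to that of Casp8, but with fewer counts its error was larger (SE 0.17, interval 0.18 to 0.91), and at an adjusted p of 0.0923 in edgeR it was not called. Casp4 (ENSMUSG00000033538, chromosome 9 from 5308828 to 5336783) had 264 and 293 normalized counts in Control and 315 and 368 in EDA-A2 libraries. The libraries of the conditions were again apart, with a log2 fold change of 0.29 (SE 0.13, interval 0.02 to 0.56, adjusted p = 0.276 in edgeR). Their TPM ratio, Gsdmd to Casp4, was 0.731 and 0.841 in Control and 0.980 and 0.911 in EDA-A2 libraries (exact p = 0.333). These intervals of fold changes are for single genes and are not widened for the number of genes tested.

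**Figure D2:**
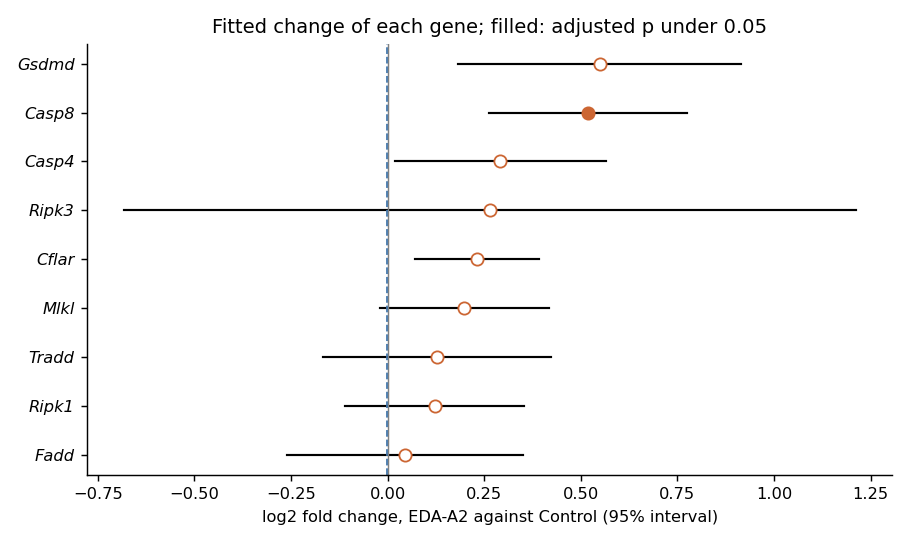
Fitted log2 fold change of each gene, EDA-A2 against Control (horizontal axis), with its 95% interval from edgeR; a filled point has an adjusted p under 0.05, and the dashed line is the median of all genes tested. All 9 points lie above 0, the intervals of Gsdmd, Casp8, Casp4 and Cflar leave out 0, and the interval of Ripk3 is the widest.

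Macrophages are known to express Casp4, Gsdmd and Casp8, so markers of other cells were read beside them. Of 8 macrophage markers, Ptprc had at most 2 counts, Adgre1 at most 1 and C1qa 0 in every library, and the summed level of the list was 10.1 and 8.69 CPM in Control and 13.8 and 10.3 CPM in EDA-A2 libraries. The 3 that passed the filter had fitted changes above 0 and none was called in edgeR. Itgam had 18 counts in each Control library and 39 and 32 in EDA-A2 libraries, a log2 fold change of 0.92 (unadjusted p = 0.0161, adjusted p = 0.168 in edgeR). Cd68, at 54 and 63 counts in Control and 81 and 69 after EDA-A2, did not overlap either (log2 fold change 0.30), whereas Mrc1, at 211 and 168 and at 288 and 203, did (log2 fold change 0.32). All 3 fitted changes were above 0, as were those of Casp8, Gsdmd and Casp4 and of 49.5% of all genes tested. Among the markers with too few counts to test, Lyz2 had 3 and 2 counts in Control and 1 and 2 after EDA-A2. Csf1r had 3 and 1 counts in Control and 8 and 3 after EDA-A2. Casp1, the inflammatory caspase beside Casp4 and a further gene of macrophages, had 0 to 3 counts. The T cell list summed to 0.278 and 0.409 CPM in Control and 0.0331 and 0.166 CPM in EDA-A2 libraries, with Cd4, Cd8a and Cd2 at 0. Fibroblast markers summed to 325 and 186 CPM in Control and 173 and 210.3 CPM in EDA-A2 libraries, almost all from Col1a1 (log2 fold change -0.46, not called). On that list Lum and Thy1 were at 0, and Col1a2 had only 17 and 18 counts in Control and 12 and 21 after EDA-A2. Dcn and Pdgfra went against that sum, with both EDA-A2 libraries above both Control libraries and log2 fold changes of 0.48 (unadjusted p = 0.0355, adjusted p = 0.267 in edgeR) and 0.16 (adjusted p = 0.651), neither of them called. The endothelial list stayed between 0.996 and 1.23 CPM. The part of these cells in the values of the 9 genes was not tested beyond these levels.

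Levels per length, as the mean of all 4 libraries, ordered the 9 genes as Casp8, Cflar, Mlkl, Tradd, Casp4, Gsdmd, Fadd, Ripk1 and Ripk3. Over the 4 libraries Casp8 had a mean of 21.9 TPM, at percentile 59.2 of the genes tested, and Ripk3 a mean of 1.01 TPM, at percentile 8.87. Among neighbours in this order, the ranges of Tradd and Casp4 and those of Ripk1 and Ripk3 did not overlap, and the other neighbours overlapped. The order also depended on the condition, since in Control alone Cflar (18.1 TPM) was above Casp8 (17.4 TPM), and Fadd (7.47 TPM) and Ripk1 (6.604 TPM) were above Gsdmd (6.589 TPM). It depended on the length used as well. With the canonical transcript as length, Cflar came first (22.2 TPM) and Casp4 next (18.5 TPM, against 9.57 TPM with all exons), while Casp8 was at 13.03 TPM. Ripk3 was lowest under either length, at 0.712 TPM with the canonical transcript. The ratio of Mlkl to Ripk3 was 15.6 and 22.01 in Control and 24.9 and 12.8 in EDA-A2 libraries, with overlapping conditions.

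**Figure D3:**
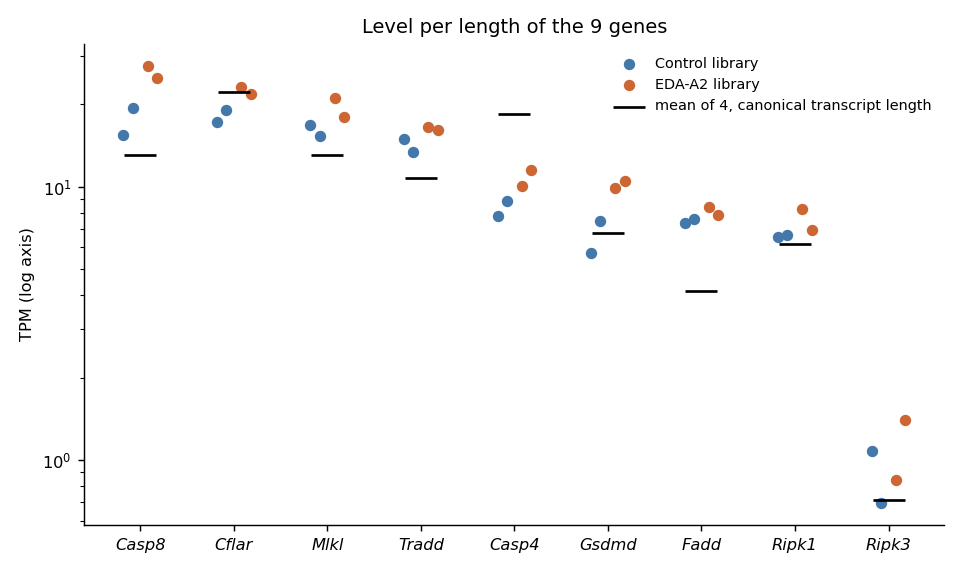
Level per length in TPM (vertical log axis) of the 9 genes, ordered by their mean. Points are the 2 Control and 2 EDA-A2 libraries with the union of annotated exons as length, and the black bar is the mean of the 4 libraries with the canonical transcript as length. Ripk3 lies at 0.695 to 1.40 TPM, below every library of the other 8 genes, and the bar of Casp4 is well above its points.

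The start regions of the 9 genes were searched for letters that inflammatory transcription factors are known to bind, over 250 bases before and 50 after the canonical start in GRCm39, on both strands. The windows searched for comparison were those of 21770 protein-coding genes. The κB consensus, bound by NFκB, was found in 1 of the 9 (Casp4) and in 4.87% of all windows. The interferon-type repeat, GAAA and again GAAA after any 2 bases, was found in Mlkl, at the far edge of its window (base -250), and in 3.84% of all windows. The palindrome TTCNNNGAA, bound by STAT factors, was found in Cflar at base -63 and in 8.81% of all windows. The windows of Casp8 and Casp4 are printed, as the gene that was called and the gene with the κB letters.
Casp8 (chr1:58834127-58834426, plus strand, no match): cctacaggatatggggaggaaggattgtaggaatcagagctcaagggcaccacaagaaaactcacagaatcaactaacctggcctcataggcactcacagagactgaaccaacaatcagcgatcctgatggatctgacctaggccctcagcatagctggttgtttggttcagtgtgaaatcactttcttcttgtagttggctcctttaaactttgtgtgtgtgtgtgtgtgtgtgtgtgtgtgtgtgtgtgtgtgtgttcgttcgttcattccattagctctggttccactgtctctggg
Casp4 (chr9:5308593-5308892, plus strand, κB letters in capitals): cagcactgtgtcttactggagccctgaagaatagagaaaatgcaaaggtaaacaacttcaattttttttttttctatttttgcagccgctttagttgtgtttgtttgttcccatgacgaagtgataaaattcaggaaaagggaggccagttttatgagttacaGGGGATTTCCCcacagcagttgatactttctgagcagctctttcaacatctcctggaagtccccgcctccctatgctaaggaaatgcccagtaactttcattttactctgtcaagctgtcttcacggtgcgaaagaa
In Casp4 the capitals hold overlapping matches that start at bases -87 and -86 from the start site, GGGGATTTCC and GGGATTTCCC on the plus strand and GGGAAATCCC on the minus strand. Windows at other starts of these genes were not searched.

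A list of 63 further genes of these pathways was read from the same fit. Like the 9 genes, it was chosen with earlier results of these data known. Its counts beside the shares of all genes are therefore no test. Of the 63 genes, 49 passed the filter, 7 rose, 1 fell and 41 were not called, with a median log2 fold change of 0.06. Among all genes tested, 2.45% rose and 2.13% fell. A further 10 of the list had at most 3 counts in every library. With no filter on low counts 3 of the list rose, beside 0.251% of all genes, and without Control replicate 1 or Control replicate 2 none was called, as was true of all genes in edgeR, although 1062 and 1245 genes were then higher at an unadjusted p under 0.05.

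Of the 5 ligand genes of the list, 4 had at most 3 counts in every library. Tnf and Lta each had 1 count in 1 Control library and 0 in the others, Fasl had 2 counts in 1 EDA-A2 library, and Tnfsf10, which encodes TRAIL, had 1 count in each EDA-A2 library. A count of 0 allows up to 3 counts, or 0.0993 to 0.104 CPM here, and covers counting error only. Tnfsf12, the gene for TWEAK, was detected at 44 and 51 counts in Control and 70 and 42 in EDA-A2 libraries, which overlap.

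Of the 6 receptor genes 1 rose. Fas, the death receptor that recruits FADD directly, had 281 and 394 normalized counts in Control and 630.3 and 634 in EDA-A2 libraries. Both treated libraries were far above both controls, a log2 fold change of 0.90 (SE 0.13, adjusted p = 0.000806 in edgeR). The call held in both fits that left out an EDA-A2 library, and it was lost with no filter (adjusted p = 0.117 in edgeR) and without Control replicate 1 (0.256) or Control replicate 2 (0.157). Tnfrsf10b, the mouse TRAIL receptor, had a log2 fold change of 0.28 and was not called (adjusted p = 0.0879). Tnfrsf1a, the main TNF receptor, had a fitted change of 0.01.

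The proteins that build the receptor complexes and edit their ubiquitin chains held 13 genes, of which 4 rose. Traf2, the adaptor beside RIPK1, went from 1178 ± 0.114 to 2131 ± 76.1 normalized counts (SD, n = 2), a log2 fold change of 0.86. The ubiquitin ligase gene Birc3 had 4 and 3 counts in Control and 69 and 54 in EDA-A2 libraries. It passed the filter through its EDA-A2 libraries alone, so its fitted fold is uncertain, and under a filter that asks for 10 counts in each library it was not tested and 6 genes of the list rose. Tnfaip3, encoding the ubiquitin-editing enzyme A20, and Cyld, a deubiquitinase that lets RIPK1 leave the receptor, rose by 1.01 and 0.34 on the log2 scale, and the call of Cyld was lost with no filter (adjusted p = 0.149 in edgeR) and also without EDA-A2 replicate 2 (0.162). Among the 3 genes of the linear ubiquitin ligase (Rnf31, Rbck1 and Sharpin) the fitted changes lay between -0.01 and 0.06.

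Of 8 other caspases 6 were tested and 1 rose. Casp12, which lies 8631 bases beyond Casp4 on chromosome 9 and is linked to stress of the endoplasmic reticulum, averaged 593 ± 9.01 normalized counts in Control and 852 ± 19.2 after EDA-A2. This log2 fold change of 0.52 had an adjusted p of 0.00244 in edgeR, which was 0.0757 with no filter.

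None of the 8 tested necroptosis regulators was called in edgeR, and 1, Chmp2a, had an unadjusted p under 0.05 (log2 fold change -0.16). Cdc37, a chaperone partner of RIPK3, had a log2 fold change of 0.13. Zbp1, a nucleic acid sensor with a RHIM that can engage RIPK3, had 13 and 10 counts in Control and 8 and 9 in EDA-A2 libraries and did not pass the filter. Of 13 pyroptosis and inflammasome genes 6 were tested and 1 rose: Gbp2, a guanylate binding protein, with a log2 fold change of 1.11 (adjusted p = 0.00241 in edgeR), a call lost with no filter (0.0707) and without Control replicate 1 (0.288) or Control replicate 2 (0.191). Nlrp3 had 0 to 4 counts. Il18 had a log2 fold change of 0.50 and was not called (adjusted p = 0.234 in edgeR). Of 9 apoptosis execution genes, Cycs, encoding cytochrome c, fell: it averaged 4907 ± 30.6 normalized counts in Control and 4063 ± 309 in EDA-A2 libraries. That was a log2 fold change of -0.27 (adjusted p = 0.0412 in edgeR), whose call was lost under scaling to total counts (0.107), with no filter (0.279) and without any 1 library (0.0621 to 0.615). Apaf1, its partner in the apoptosome, had a fitted change of 0.08, and Htra2, a protease released from mitochondria, of 0.19 (adjusted p = 0.353 in edgeR).

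**Figure D4:**
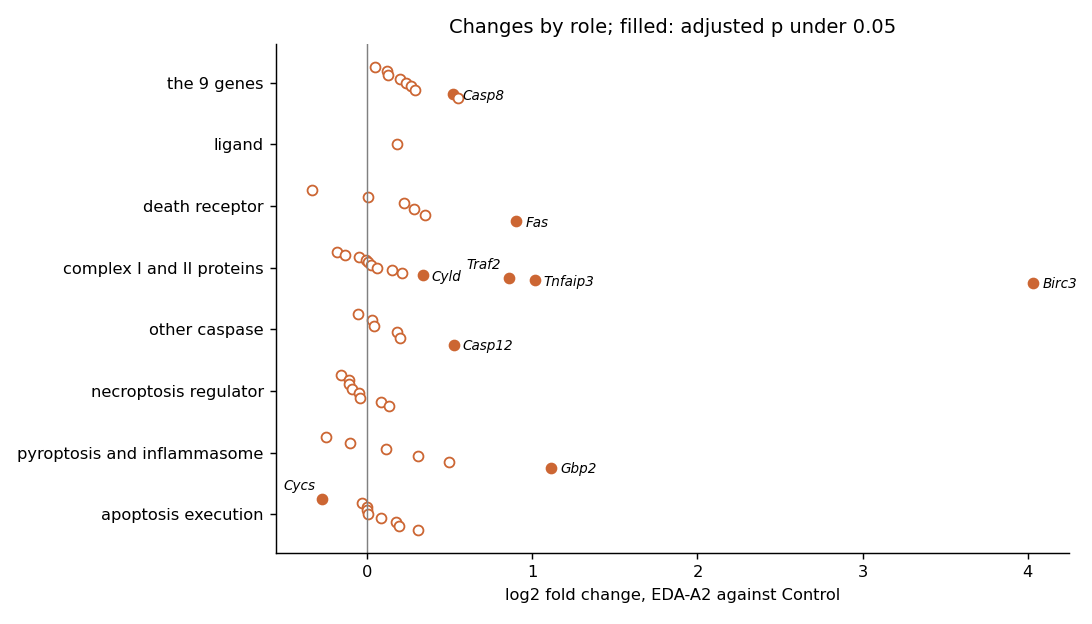
Fitted log2 fold change, EDA-A2 against Control (horizontal axis), of the 9 genes and of the 49 tested genes of the pathway list, 1 line per role; filled and named points have an adjusted p under 0.05. Casp8 is the filled point among the 9, Birc3 lies far to the right at a fitted 4.03, which rests on 4 and 3 counts in Control, and Cycs is the only filled point below 0.

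**Figure D5:**
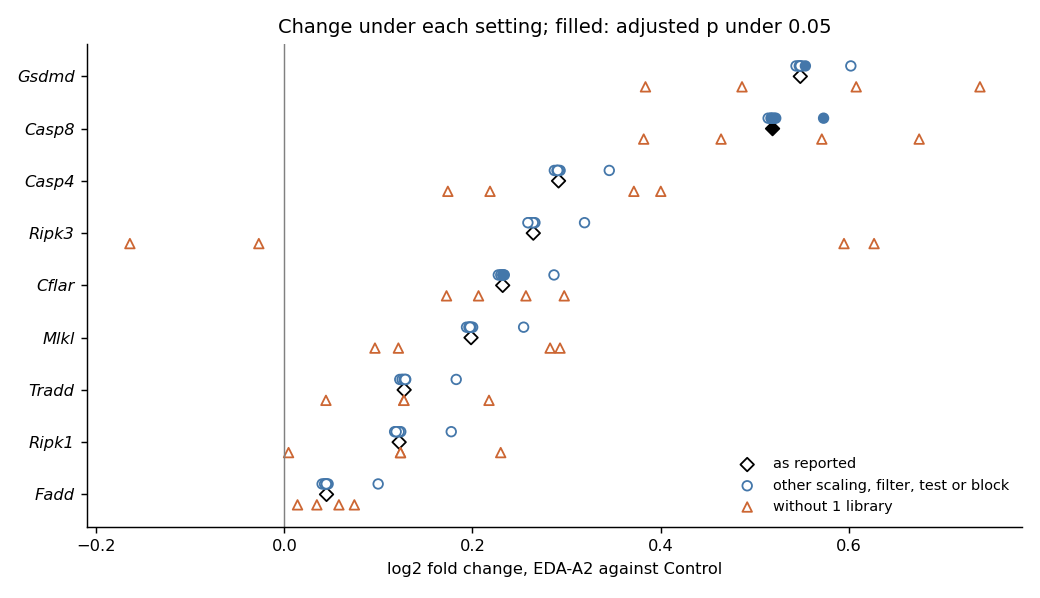
Log2 fold change of the 9 genes (horizontal axis) as reported (diamonds), under 7 other scalings, filters, tests or a replicate block (circles) and without 1 library each (triangles); filled symbols have an adjusted p under 0.05. The triangles of Casp8 span 0.38 to 0.67, Ripk3 crossed 0 in 2 of its triangles, and no triangle is filled.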

How the data were processed

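RNA of 4 stranded mRNA libraries was sequenced. According to the submitters' processing notes, the authors checked reads with FastQC 0.11.9 and MultiQC 1.12, trimmed them with Trim Galore 0.6.5, mapped them to GRCm39 with STAR 2.7.3a and counted them with HTSeq 0.11.1. What the authors deposited for each library is a table of unnormalized read counts by Ensembl gene. The annotation release and strand option are not given in the sources used here. HTSeq's summary lines were left out. They held 6.68% to 7.40% of read pairs assigned to no feature, 0.946% to 0.986% ambiguous and 4.56% to 4.76% not unique. GENCODE (GRCm39) matched 52610 of 53647 genes.

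Counts were fitted in R 4.3.3 with edgeR 4.0.16: TMM factors, filterByExpr (minimum count 10, minimum total 15), glmQLFit and glmQLFTest, a design of condition alone, Benjamini-Hochberg adjustment over all genes tested, threshold 0.05. Standard errors follow from each log2 fold change and its F statistic. For normalized counts, each library was divided by its TMM-adjusted size and brought to a common scale. The fit was also run on simulated counts with the same spread setting for every gene. That run does not cover spread that differs by gene, small changes or changed genes of few counts. TPM used union exon lengths. The members and lists were chosen with earlier results of these data known. Named beside the 9 genes were the called genes of the pathway list, the 2 smallest p-values per role, genes at the floor of 3 counts and Eda2r, except 1 that is not reported here; Tnfrsf1a, Apaf1, Nlrp3, Zbp1 and the linear ubiquitin ligase genes were named after their values were seen. Alternatives were DESeq2 1.42.0 size factors and Wald test, total counts, 2 other filters, robust estimation, a replicate block and leaving out each library. Canonical transcript length for TPM was added after seeing the data.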

Additional observations from a re-analysis of the deposited data

How the results depend on the processing

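All 9 genes kept a log2 fold change above 0 under the 7 other scalings, filters, tests and block, and 59 of the 62 values with an adjusted p stayed on their side of the threshold (DESeq2 gave none for Ripk3). Called higher and lower were 371 and 323 genes as reported, 64 and 22 with no filter (median degrees of freedom per test 5.99 against 14.5) and 485 and 194 under total counts. Of the 9 genes, 0 were called with no filter, where 3 were higher at an unadjusted p under 0.05 in edgeR. Of all 25545 genes of that fit, 1119 were higher and 1145 lower at the same unadjusted threshold. Of the pathway list, 3 rose and 0 fell with no filter, and 0 fell under total counts. With the replicate number as a block, 537 genes were higher and 529 lower, and 3 of the 9 were called (beside 3.54% of all genes higher and 3.49% lower), since Cflar (adjusted p 0.0464) and Gsdmd (0.0474) joined Casp8, and Tnfrsf10b was called too (0.0242). The deviations of same-numbered libraries correlated at 0.0598, and no label says that a number marks a shared culture. With 2 libraries per condition this cannot decide whether the numbers pair the libraries, so the fit without the block was kept.

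Without 1 library, the lone library of its condition is assumed to vary like the other condition. Genes called then ranged from 0 to 238 higher and 0 to 170 lower, and were 0 without either Control library, where the median degrees of freedom were 3.40 and 3.52. Those called of the 9 were 0 in each case (1 to 3 with an unadjusted p under 0.05), and of the pathway list 0 to 7 rose and 0 fell. The log2 fold change of Ripk3 ranged from -0.16 to 0.63, that of Tnfsf12 from -0.23 to 0.50 and that of Casp8 from 0.38 to 0.67. With 2 libraries per condition, small changes in genes of few counts, such as Ripk3, were not detectable at this depth.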
